A study of Mus musculus with 2 samples.

Results

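Interleukins and chemokines are secreted proteins through which immune cells, glia and other cells signal to one another, and each acts through receptors on the surface of the receiving cell. Most interleukin receptors are assembled from a chain that recognises the ligand and a chain that several ligands share, and they signal through Jak kinases and Stat factors or through Myd88 and NF-kB. Chemokine receptors are coupled to inhibitory G proteins and guide cell movement. In the brain a few of these ligands are made by resting neurons and glia, whereas most others are known from injury, infection or lymphoid tissue.

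The genes described here are all those whose symbol is that of a numbered interleukin, a CC, CXC or CX3C chemokine, or a numbered receptor of either class, and whose probe set names no other gene. They were found by symbol alone, without use of any signal. This gave 112 probe sets of the 34472 on the array, 1 for each of 112 genes out of 22180 named genes. They were 37 interleukin ligands, 28 interleukin receptors, 32 chemokine ligands and 15 chemokine receptors. Il2rg and Il11ra1 had no probe set of their own and were not analysed here.

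The RNA came from the medial prefrontal cortex of adult D2Cre::RiboTag mice. In these animals Cre recombinase, driven through the gene of the dopamine D2 receptor, switches on a haemagglutinin-tagged ribosomal protein, and ribosomes were precipitated with an antibody to the tag. The cortices of 5 mice were pooled, and the 2 arrays are technical replicates, taken to share that pool. All samples belong to 1 group, described in the labels as Drd2+ neurons, and neither input RNA nor a mock pull-down nor another condition was analysed here. Spread between the arrays is therefore technical only, no difference between animals can be measured, and no p-value is given. In a precipitate of pooled tissue, fewer cells with a transcript and less transcript per cell cannot be told apart.

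Signals are given on a log2 scale, which the span of the values implies. Background was read from 1390 sensory receptor genes, olfactory and vomeronasal, which are known mainly from the nose. A gene was called above background when both arrays put it over their 95th percentile, which lay at 5.62 on replicate 1 and 5.67 on replicate 2. A stricter threshold, the 99th percentile of the same genes, lay at 6.64 on both arrays. Probe sets bind with different strength, so signals of different genes were not ranked against each other.

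Most interleukin, chemokine and receptor genes gave no signal above background. Of the 112 genes, 40 (35.7%) exceeded background, where 60.3% of all named genes did. At the stricter threshold 14 (12.5%) remained above, where 44.9% of all named genes did. With the 95th percentile of keratin-associated protein and defensin genes as threshold it was 14 again, where 44.0% of all named genes passed, and with the median of all probe sets 34, where 57.5% did. At the first threshold a further 6 exceeded background on 1 array only and 66 on neither. The median log2 signal of the 112 genes was 5.33, beside 6.36 for all named genes. Above background were 26 of 69 ligands (37.7%) and 14 of 43 receptors (32.6%). At the stricter threshold these counts were 9 and 5. By class, 11 of 37 interleukin ligands, 10 of 28 interleukin receptors, 15 of 32 chemokine ligands and 4 of 15 chemokine receptors exceeded background. The difference between these shares was not tested.

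**Figure D1:**
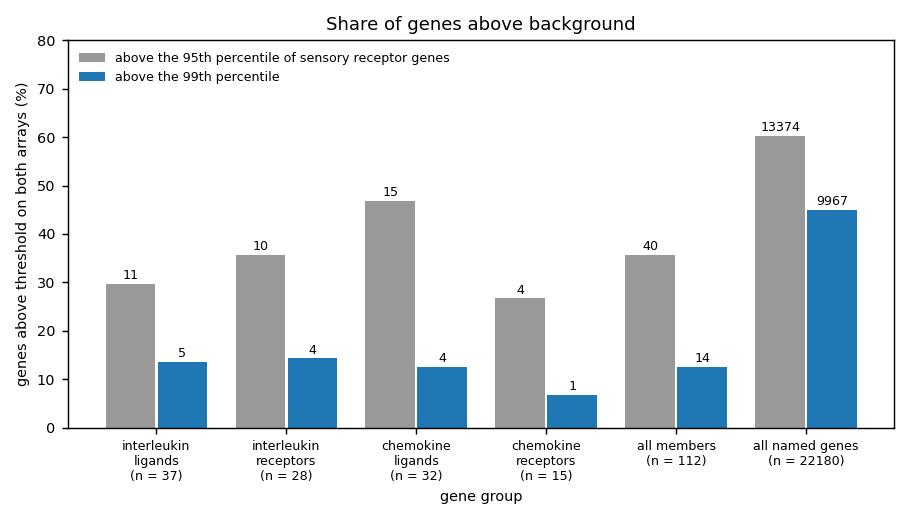
Bars give the percentage of genes (y axis) above the 95th (grey) and the 99th percentile (blue) of sensory receptor genes on both arrays, for the 4 classes, all 112 members and all 22180 named genes, with the gene count above each bar. Each class lies below all named genes at both thresholds, and 14 members pass the stricter one.

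The chemokine ligands with clear signal were few. Cx3cl1, the membrane-bound chemokine fractalkine that neurons present to microglia, gave 12.69 on replicate 1 and 12.74 on replicate 2. Cxcl14, a conserved CXC chemokine found in some interneurons, gave 10.61 and 10.56. Cxcl12, which guides migrating neurons and interneuron precursors, gave 9.06 and 9.29. On both arrays these genes lay more than 2 log2 units above the stricter threshold. Ccl28, a chemokine of mucosal surfaces, was the fourth to pass it, at 6.79 and 6.84. Ccl25, known from thymus and gut, passed it on replicate 2 only, at 6.63 and 7.02.

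The upstream sequence of these 3 genes is shown because they carried the clearest chemokine signal, with that of Il1b as 1 example of a member that was not above background. Each line holds the 250 bases before the RefSeq transcription start, 5′ to 3′ on the gene's strand, with CG dinucleotides in capitals. The windows are chr8:94771930-94772179 (plus strand) for Cx3cl1, chr13:56296552-56296801 (minus strand) for Cxcl14, chr6:117168285-117168534 (plus strand) for Cxcl12 and chr2:129371140-129371389 (minus strand) for Il1b, in the build GRCm38.p6 of the RefSeq table.
Cx3cl1: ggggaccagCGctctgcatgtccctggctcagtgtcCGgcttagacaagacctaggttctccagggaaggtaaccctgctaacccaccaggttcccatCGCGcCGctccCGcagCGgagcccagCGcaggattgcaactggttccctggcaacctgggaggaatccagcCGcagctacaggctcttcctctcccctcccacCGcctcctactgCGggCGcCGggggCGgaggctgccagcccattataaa
Cxcl14: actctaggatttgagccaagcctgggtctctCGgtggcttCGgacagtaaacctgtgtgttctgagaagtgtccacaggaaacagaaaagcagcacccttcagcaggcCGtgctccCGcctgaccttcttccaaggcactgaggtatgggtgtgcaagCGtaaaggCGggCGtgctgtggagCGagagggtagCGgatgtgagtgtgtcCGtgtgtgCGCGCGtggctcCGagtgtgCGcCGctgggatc
Cxcl12: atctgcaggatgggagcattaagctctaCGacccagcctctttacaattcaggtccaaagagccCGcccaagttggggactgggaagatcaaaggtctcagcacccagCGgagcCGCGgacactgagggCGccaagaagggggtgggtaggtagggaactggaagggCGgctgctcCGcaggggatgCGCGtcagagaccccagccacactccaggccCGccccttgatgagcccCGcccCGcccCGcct
Il1b: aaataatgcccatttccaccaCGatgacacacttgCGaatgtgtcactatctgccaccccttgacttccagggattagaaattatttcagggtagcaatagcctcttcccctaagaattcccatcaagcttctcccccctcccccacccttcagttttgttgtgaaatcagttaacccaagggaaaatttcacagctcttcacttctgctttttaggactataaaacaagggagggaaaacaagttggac
They hold 14 CG in Cx3cl1, 16 in Cxcl14, 14 in Cxcl12 and 2 in Il1b. Il1b does not stand for its class, since Il17rb, also under background on both arrays, holds 27.

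The other chemokine ligands were near or under background. Cxcl13, Cxcl16 and Cxcl17, of which Cxcl13 attracts B cells, lay between the thresholds. All 6 members of the group of Cx3cl1, Cxcl12, Cxcl13, Cxcl14, Cxcl16 and Cxcl17 were thus above background. None of the 5 measured neutrophil-attracting CXC chemokines was, and Cxcl1 among them gave 5.38 and 5.56. The 3 interferon-induced chemokines Cxcl9, Cxcl10 and Cxcl11 also stayed under it, with Cxcl10 at 5.16 and 5.24.

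Of the 13 measured CC chemokines that attract monocytes, eosinophils and T cells, 5 (38.5%) exceeded background and 0 the stricter threshold. Of all named genes 60.3% and 44.9% did. Ccl2, the main attractant of monocytes, gave 5.53 and 5.42 and was under background on both arrays. Ccl3 gave 5.01 and 5.24 and was also under it. Ccl5 gave 6.0 and 6.15 and was above it, as were Ccl4, Ccl9, Ccl11 and Ccl24. Ccl24 passed on replicate 1 at 5.62 by less than 0.01. Ccl3 and Ccl4 overlap in the RefSeq annotation. Among the 5 measured homeostatic and barrier CC chemokines, Ccl17, Ccl20, Ccl25 and Ccl28 were above background and Ccl22 was not. Ccl19 was named only by 13 probe sets that also name other genes, and 12 of these exceeded background and 0 the stricter threshold.

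Among interleukin ligands, Il34 stood clear of both thresholds, at 10.01 on replicate 1 and 9.93 on replicate 2. Il34 is the neuron-derived ligand of the receptor Csf1r, on which microglia depend. Il17d, a distant member of the IL-17 family, gave 7.68 and 7.91. Il18, a member of the IL-1 family that inflammasomes activate, gave 7.15 and 7.55. Il33, a nuclear alarmin of the same family known from astrocytes and oligodendrocytes, gave 6.89 on each array. Il27, a subunit of a cytokine of antigen-presenting cells, gave 6.81 and 7.10. These 5 were the interleukin ligands above the stricter threshold on both arrays. Il27 overlaps Apobr in the annotation, which was itself above background with a mean of 6.07 (log2 signal), and the array strand of neither probe set is given in the sources used here.

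Several textbook interleukins of inflammation and of T cells were under background on both arrays, while others made by helper T cells, such as Il13 and Il17f, were above it. Il1a, an alarmin of damaged cells, gave 4.86 and 4.83. Il1b gave 4.79 and 4.66. Il6, the main inducer of the acute phase, gave 3.16 and 3.41. Each of these 3 inflammatory genes lay at least 0.7 log2 units under background on both arrays. The T cell growth factor Il2 gave 3.36 and 3.59, the type 2 cytokine Il4 gave 4.48 and 4.31, and the anti-inflammatory Il10 gave 4.53 and 4.16. Il17a, the founding member of its family, gave 5.11 and 4.93. A call of not above background does not show that a transcript was absent.

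Of all named genes 60.3% exceeded background and 44.9% the stricter threshold, to be set beside the family counts here. By family, 2 of 8 measured IL-1 family ligands were above background, and both, Il18 and Il33, also passed the stricter threshold. This family includes Il1f5, which encodes a receptor antagonist. Of the 7 ligands of the common gamma chain group, which includes Il13, only Il13 was above background, at 5.82 on each array. None of the 5 IL-10 family ligands and neither Il3 nor Il5 was. Il11 and Il27 were the 2 of 4 gp130 ligands above it, gp130 being the shared receptor chain encoded by Il6st. Of the 3 subunits of IL-12 and IL-23, Il12a was above it, while its partner Il12b was under it on both arrays. The IL-17 family had 4 of 6 members (66.7%) above background, a share near that of all named genes. They were Il17c, Il17d, Il17f and Il25, of which only Il17d (16.7% of the family) passed the stricter threshold. Il16, a T cell attractant whose gene also encodes a neuronal form, gave 5.71 and 5.65 and was above background on replicate 1 only.

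**Figure D2:**
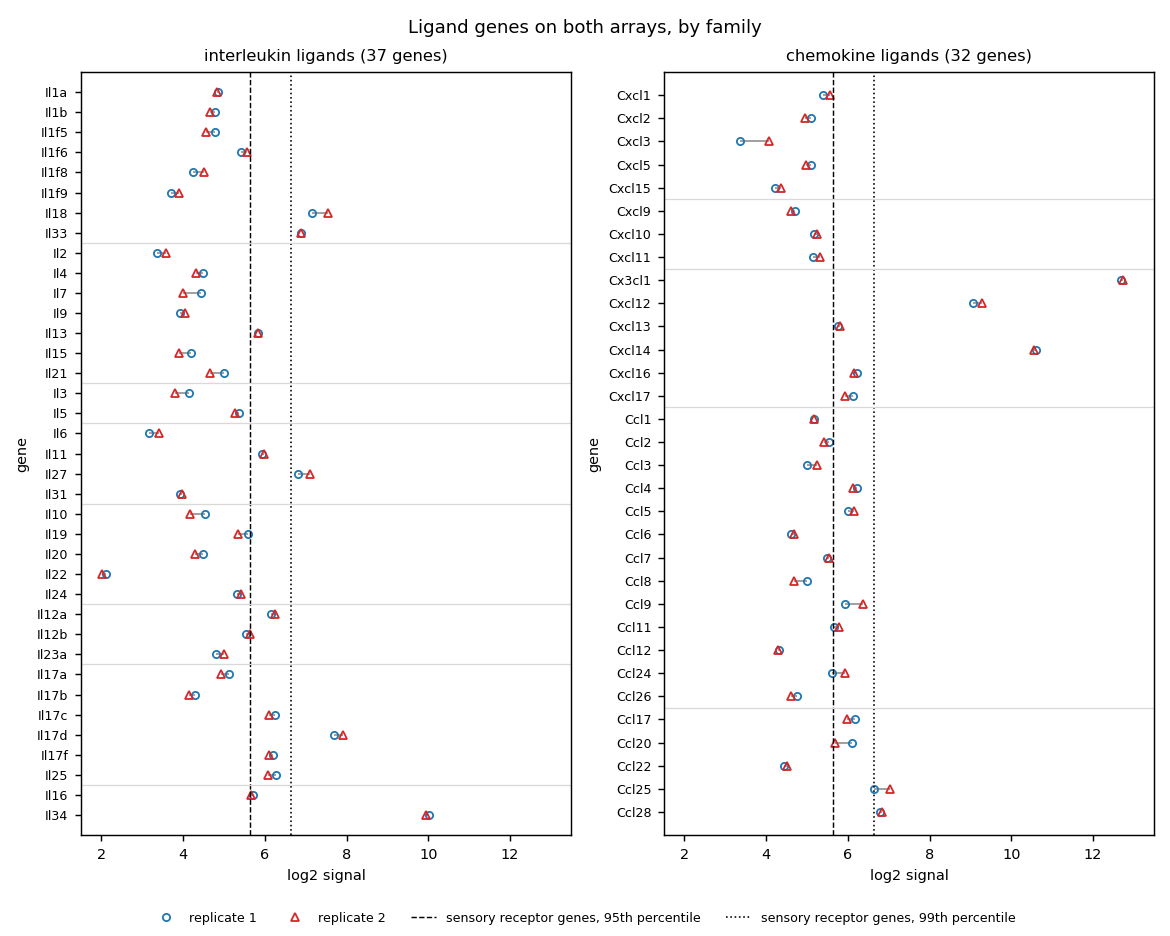
Log2 signal (x axis) of every interleukin ligand (left) and chemokine ligand (right), ordered by family with grey lines between families. Circles are replicate 1, triangles replicate 2, and vertical lines are the 95th (dashed) and 99th percentiles (dotted) of sensory receptor genes, averaged over the arrays. Cx3cl1, Cxcl14, Il34 and Cxcl12 stand apart from both lines.

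Of the interleukin receptors, 4 passed the stricter threshold. Il17ra, the chain that IL-17 receptors share, gave 7.92 and 8.13. Il10rb, a chain shared by receptors of the IL-10 family, gave 7.0 and 6.76. Il4ra, the chain that binds IL-4 and also serves IL-13, gave 6.91 and 6.84. Il6ra, which binds IL-6, gave 6.84 on each array. All 4 are chains that combine with a second receptor subunit to signal. Il15ra passed the stricter threshold on replicate 1 only, at 6.70 and 6.60.

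Of the 28 interleukin receptors, 15 were under background on both arrays. Among them, named after their values were seen, were Il2ra, Il2rb, Il7r, Il21r, Il12rb2, Il23r and Il18r1. Il7r, which lymphocyte precursors need, gave 3.82 and 3.55. Il1r1, the signalling receptor of IL-1, gave 5.92 and 5.86 and was above background, while the decoy receptor Il1r2 gave 4.58 on each array and was not. Il3ra, Il9r, Il12rb1 and Il27ra were above background and under the stricter threshold on both arrays. Il10ra at 5.50 and 5.71 and Il31ra at 5.44 and 5.71 were above background on replicate 2 only, and Il13ra1 at 5.67 and 5.62 on replicate 1 only.

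Chemokine receptors had 1 gene above the stricter threshold, Cxcr4, the receptor of Cxcl12, at 6.96 and 7.04. Cxcr3, the receptor of interferon-induced chemokines, gave 6.12 and 6.06. Cxcr1 and Cxcr2, receptors of neutrophil-attracting chemokines, were also above background, Cxcr1 with 5.64 and 6.30 and Cxcr2 with 5.88 and 5.71. Cxcr1 exceeded background on replicate 1 by less than 0.03. None of the 9 measured CC receptors exceeded background on both arrays. Ccr2, the monocyte receptor of Ccl2, gave 4.33 and 4.13. Ccr7 at 5.72 and 5.59 and Ccr10 at 5.75 and 5.53 were above background on replicate 1 only. Ccr10 overlaps Cntnap1 in the annotation, a gene with a mean log2 signal of 10.71.

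**Figure D3:**
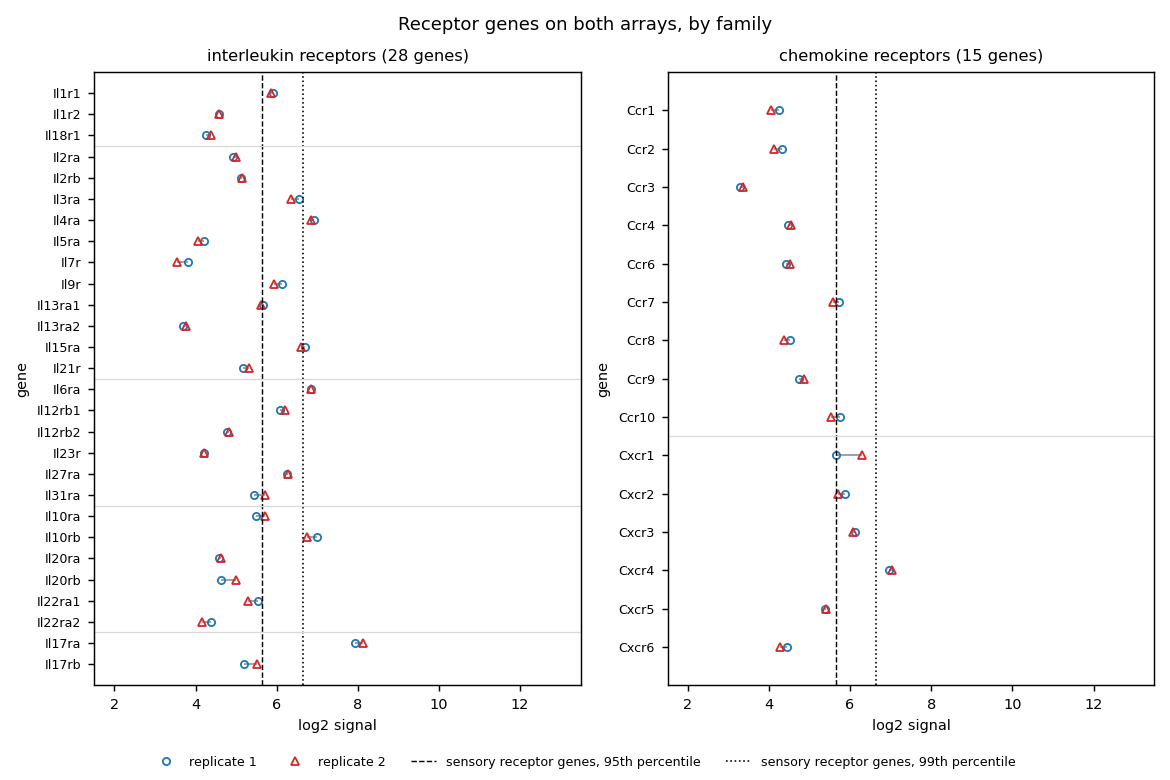
Log2 signal (x axis) of every interleukin receptor (left) and chemokine receptor (right), ordered by family, with circles for replicate 1, triangles for replicate 2 and the same thresholds as dashed and dotted lines. Il17ra, Il10rb, Il4ra, Il6ra and Cxcr4 lie to the right of the dotted line on both arrays, and all 9 CC receptors lie at or left of the dashed line on at least 1 array.

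Textbook pairs were examined next, using the 46 pairs whose every chain was measured. In 6 of the 46 every chain was above background, in 14 only the ligand was, in 11 only the receptor, and in 15 neither side was complete. The 6 were Cxcl12 with Cxcr4, Cxcl12 with Ackr3, Cx3cl1 with Cx3cr1, Il34 with Csf1r, Il27 with Il27ra and Il6st, and Il17f with Il17ra and Il17rc. The list enters Il27 without Ebi3, the subunit with which it forms its cytokine. Ebi3, averaged over 2 probe sets, was under background on both arrays, at 5.40 and 5.32. The lower set gave 5.01 and 4.92, and the higher, at 5.79 and 5.71, was above background, so the call depends on which is read. With the averaged Ebi3 signal required, an alternative chosen after the data were seen, 5 pairs were complete. Several pairs share a chain, so they are not independent. At the stricter threshold 3 pairs were complete: Cxcl12 with Cxcr4, Cx3cl1 with Cx3cr1, and Il34 with Csf1r. Cx3cr1 gave 7.76 and 7.91 and Csf1r gave 7.59 and 7.62, and both receptors are defining genes of microglia. All 11 measured microglial markers exceeded background and 5 (45.5%) the stricter threshold, with list medians of 6.58 and 6.81. Of all named genes, 60.3% exceeded background and 44.9% the stricter threshold, so the share at the stricter threshold was close to that of all named genes. The marker P2ry12 overlaps Med12l in the annotation, a gene with a mean log2 signal of 9.615. The part of microglia in these results was not tested.

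Incomplete pairs fell on either side. For Il6 the receptor chains were above background and the ligand was not, since Il6ra passed the stricter threshold and Il6st, the shared gp130 chain, gave 9.32 and 9.34. For Il1a and Il1b, Il1r1 and the accessory chain Il1rap were above background. Il1rap averaged 3 probe sets with means of 4.22, 5.90 and 8.30, so its call depends on which is read. For Il18 the ligand passed the stricter threshold, while Il18r1 at 4.26 and 4.38 and Il18rap at 4.82 and 4.53 were under background. Il18bp, which binds and blocks the protein of Il18, gave 6.35 and 6.73.

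Genes next to these in the pathway were taken from lists. Of 20 measured receptor chains, decoys and antagonists that the symbol rule does not cover, 12 (60.0%) exceeded background and 6 (30.0%) the stricter threshold, beside 60.3% and 44.9% of all named genes. The latter were Il6st, Lifr, Cntfr, Crlf2, Csf1r and Il1rapl1. Cntfr, which binds ciliary neurotrophic factor, gave 10.47 on each array, and Lifr, the receptor chain of leukaemia inhibitory factor, gave 9.75 and 9.66. Il1rapl1, a synaptic adhesion protein of the IL-1 receptor family, gave 8.58 and 8.30. Of 10 other chemokines and chemokine receptors, 4 (40.0%) exceeded background. Among them, Ackr1, an atypical receptor known from venules and red cells, gave 10.39 and 10.28, Ackr2 gave 7.38 and 7.30, and Ackr3 gave 6.55 and 6.78. Ackr1 overlaps Cadm3 in the annotation, a neural adhesion gene whose mean log2 signal was 11.82. The part of that overlap in the Ackr1 signal was not tested.

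The intracellular parts of the pathways were counted against the same background, which 60.3% of all named genes exceeded, and the stricter threshold, which 44.9% exceeded. Of 17 measured Jak, Stat and Socs genes, 16 (94.1%) were above background and 11 (64.7%) above the stricter threshold. Socs3, counted above background, averaged 2 probe sets with means of 5.32 and 6.58. Socs2, counted above the stricter threshold, averaged 2 with means of 6.4 and 7.865. Both calls depend on which probe set is read. The kinase Jak1 gave 10.93 and 10.83, Jak2 gave 9.37 and 9.07, and Stat3, the main Stat of gp130 receptors, gave 9.51 and 9.40. Stat4, which acts downstream of IL-12, was above background on replicate 1 only, at 5.63 and 5.57. Of 16 measured genes from Myd88 to NF-kB, 13 (81.2%) were above background and 12 (75.0%) above the stricter threshold. The adaptor Myd88 gave 6.57 and 6.66, the kinases Irak1 and Irak2 gave 7.87 and 8.04 and 7.21 and 7.30, and Rela, the NF-kB subunit p65, gave 8.82 and 8.92. Traf3ip2, the adaptor of IL-17 receptors, was under background at 5.11 and 5.14. Of 13 measured effectors of chemokine receptors, 11 (84.6%) were above background and 10 (76.9%) above the stricter threshold. The exceptions to the first were Dock2, at 5.3 and 5.02, and Pik3cg, above background on replicate 2 only at 5.54 and 5.84. The difference of these shares from that of all named genes was not tested, and many of these signalling genes serve other receptors too.

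Markers of the cells that could supply such transcripts were counted the same way. All 8 neuronal markers passed the stricter threshold, and Drd2 itself gave 10.78 and 10.70. All 8 astrocyte, all 7 measured oligodendrocyte and all 9 endothelial and mural markers were above background, 7, 7 and 5 of them above the stricter threshold. Of 28 measured markers of T cells, B cells, natural killer cells, neutrophils and mast cells, 5 (17.9%) were above background and 0 above the stricter threshold, where 60.3% and 44.9% of all named genes were. The 5 were Cd4, Cd5, Nkg7, Prf1 and Elane, of which Prf1 passed the stricter threshold on replicate 1 only, at 6.70 and 6.44. The 26 members that passed the lower threshold and not the stricter one on both arrays, such as Ccl5, Il17f, Cxcr3 and Il1r1, thus met the same call as these 5 leukocyte genes. Of 5 genes listed as markers of perivascular macrophages, 2 were above background. They were Lyve1 at 6.08 and 6.12 and Cd68 at 7.85 and 7.86, the latter above the stricter threshold. Mrc1 at 5.60 and 5.13, Cd163 at 5.28 and 5.25, and Pf4 at 5.16 on each array were under background. Of 5 markers of meningeal fibroblasts, 3 were above background, and Dcn among them, at 7.15 and 7.17, was above the stricter threshold. Col1a2, not among the 3, averaged 2 probe sets with means of 4.26 and 6.63. The mural marker Rgs5, counted above background, averaged 2 with means of 5.345 and 8.565. Both calls depend on which probe set is read. The part of these cells in the members' signals was not tested.

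The agreement of the arrays was measured by the difference between them. Differences of replicate 2 from replicate 1 had an SD of 0.208 on the log2 scale over the 112 genes, beside 0.218 over all named genes, and its median size was 0.14. Below a mean log2 signal of 5 the SD was 0.221 over 46 members and 0.305 over all named genes, from 5 to 7 it was 0.198 over 58 members and 0.223, and at 7 and above it was 0.162 over 8 members and 0.126. In those 8 members the median difference was 0.145, beside -0.03 for all named genes in that range. Replicate 2 was higher in 54 genes, lower in 53 and equal in 5. Only Cxcl3, at 3.36 and 4.07, and Cxcr1 differed by more than 0.5 log2 units. Next came Ccl9 at 5.94 and 6.37, Il7 at 4.43 and 4.0, and Ccl20 at 6.11 and 5.69. On at least 1 array 22 of the 112 genes lay within 0.2 log2 units of background, a distance that the technical spread can cross. In all 14 genes above the stricter threshold the arrays differed by 0.40 or less.

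Many members lie side by side in the genome. Counting runs of members with no other protein-coding gene between them in the RefSeq annotation of GRCm38.p6, 18 runs held 50 of the 112 genes. Of these 50, 14 were above background and 2 above the stricter threshold, Cx3cl1 and Il4ra. Of the 62 members outside runs, 26 were above background and 12 above the stricter threshold. The difference between these counts was not tested, and in both the share lay under the 60.3% of all named genes. The run of Ccl22, Cx3cl1 and Ccl17 holds neighbours with different signals, since Cx3cl1 stood at 12.69 and 12.74 and Ccl22 at 4.45 and 4.50. In the run of Cxcl3, Cxcl15, Cxcl1 and Cxcl2, in that of Il24, Il20, Il19 and Il10, and in that of Il1f8, Il1f9, Il1f6 and Il1f5, no gene was above background. Many members of a run are related in sequence, and counts over them are not independent. In the same annotation 13 members overlap another protein-coding gene. For 8 of these that gene was above background, and 3 of the 8 members, Cxcl16, Il27 and Il27ra, were above background themselves.

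Promoter sequences were read for features that the choice by symbol did not use. RefSeq windows were at hand for 81 of the 112 genes, and the 250 bases before each start were read, taking the highest count or any match where a gene has several starts. Of the 14 genes above the stricter threshold 10 had a window, and Il34, Il27, Il17ra and Il10rb had none. These 10 had a median of 15 CG dinucleotides, and 7 of them had more than the median of 6 over all 27025 genes in the table. The 7 were Cx3cl1, Cxcl12, Cxcl14, Cxcr4, Il17d, Il4ra and Il6ra. Il18 with 1 CG, Il33 with 4 and Ccl28 with 4 were the others. The 17 genes with a window between the thresholds had a median of 4, with 6 of them over the table's median. The 54 with a window not above background had a median of 3, with 12 of them over the table's median, as were 13144 of all 27025. Among those 12, Il17rb held 27, Il13ra1 21 and Il1r2 14. The difference between the classes was not tested. The letters GGGCGG, the core of the box bound by Sp1, occurred on either strand in 5 of the 10, 5 of the 17 and 8 of the 54, beside 35.4% of all genes. The letters TATAAA occurred on the gene's strand within the last 50 bases in 3 of the 10, 4 of the 17 and 9 of the 54, beside 3.15% of all genes.

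**Figure D4:**
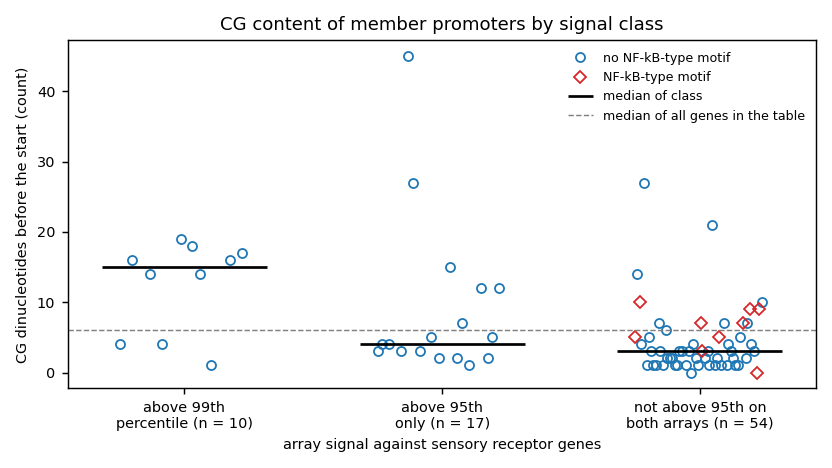
Each point is a member gene with a promoter window, placed by the number of CG dinucleotides in the 250 bases before its start (y axis) and by its array signal against the thresholds (x axis). Black bars are class medians of 15, 4 and 3, the dashed line is the median of 6 over all genes in the table, and red diamonds, are the 9 genes with the NF-kB-type motif, which lie in the class of 54 genes not above background on both arrays.

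A motif of the kind that NF-kB binds, GGGANNTTCC on either strand, occurred in 9 of the 81 windows, beside 1.36% of all genes in the table. Among genes with a window, all 9 belonged to the 54 not above background on both arrays. The motif occurred in 0 of the 10 above the stricter threshold and 0 of the 17 between the thresholds. The difference between the classes was not tested, and 3 of the 9 are neighbouring paralogs. Il16 among the 9 was above background on replicate 1. They were Ccl1, Ccr3, Cxcl1, Cxcl2, Cxcl3, Cxcl10, Il16, Il22ra1 and Il6. The matches of 5 genes are shown because they are textbook inflammatory genes that gave no call here. Other inflammatory genes without a call, such as Il1a, Il1b, Ccl3 and Cxcl9, had a window without the motif. Each line gives the match in capitals with 10 bases on either side, 5′ to 3′ on the gene's strand, from chr5:90891164-90891193 for Cxcl1, chr5:90903792-90903821 for Cxcl2 and chr5:90786018-90786047 for Cxcl3 (plus strand), chr5:92349029-92349058 for Cxcl10 (minus strand) and chr5:30013060-30013089 for Il6 (plus strand) of GRCm38.p6.
Cxcl1: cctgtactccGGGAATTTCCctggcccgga
Cxcl2: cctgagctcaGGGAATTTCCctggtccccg
Cxcl3: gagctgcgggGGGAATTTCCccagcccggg
Cxcl10: agaggggagaGGGAAATTCCaagttcatgg
Il6: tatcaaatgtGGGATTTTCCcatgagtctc
Cxcl1, Cxcl2 and Cxcl3, which are neighbouring paralogs, carry the same 10 letters, and so does Il16 on another chromosome. A match is a description of the letters and not a binding site shown here, and the GGGANNTTCC search says nothing of other forms of the motif.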

How the data were processed

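RNA from precipitated ribosomes was labelled with biotin by the Affymetrix WT Plus kit, per the labels' protocols. The deposited table gives 1 log2 value per probe set and array, between 1.66 and 14.18. The log base was inferred from these values, and how background was corrected and probes were summarised and normalized is not given in the sources used here. Array medians were 5.80 and 5.81, and 0 value columns were left unused. No detection p-values or scanner files were used here, and having 2 arrays limits the precision.

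Of 34472 probe sets, 23521 named 1 gene in the platform annotation, 1814 named several genes and 9137 are unnamed here. Probe sets of a gene were averaged. All 112 member symbols matched RefSeq (GRCm38.p6) by gene identifier and 0 changed. Scripts used Python 3.11.15, pandas 2.3.3 and numpy 2.4.6. Threshold alternatives were the 99th percentile, the 95th percentile of 103 keratin-associated protein and defensin genes, and the median of all probe sets. Others were each array alone, quantile normalization, a gene's highest probe set, and leaving out genes with several probe sets. Members and lists were chosen with earlier results of these data known. Named genes were every member above the 99th percentile, those above background on 1 array, the 5 with the largest difference between arrays and a fixed list, and other members are named as examples chosen after their values were seen.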

Additional observations from a re-analysis of the deposited data

How the results depend on the processing

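The count of called genes depended on the threshold. At the 99th percentile of sensory receptor genes, and equally at the 95th percentile of keratin-associated protein and defensin genes, 5 interleukin ligands, 4 interleukin receptors, 4 chemokine ligands and 1 chemokine receptor passed, 14 genes in all. Those thresholds called 44.9% and 44.0% of all named genes. At the median of all probe sets 2 chemokine receptors passed, and the other counts stayed within 1.5 times. The other alternatives, each array alone included, kept every count within that range. Without replicate 1 or replicate 2 the median log2 signal of chemokine ligands was 5.54 or 5.51 and that of interleukin ligands 4.93 or 5.00. Of the 40 members above background, 26 were not above the 99th percentile on both arrays. The count of complete ligand and receptor pairs was 6, and its alternatives were chosen after the data were seen. It was 3 at the 99th percentile and 3 at the threshold from keratin-associated protein and defensin genes. It was 5 with the averaged Ebi3 signal required beside Il27, and 8 or 6 on replicate 1 or replicate 2 alone. No paired analysis was possible because there is 1 group. Signal over background limits the calls of the 22 of 112 genes that lay within 0.2 log2 units of background on an array.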

Other observations

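Cytokines outside the interleukin and chemokine names were counted on lists added after the members had been examined. Of 16 measured other ligands, 7 (43.8%) were above background, where 60.3% of all named genes were. They included the macrophage factor Csf1, the other ligand of Csf1r besides Il34, at 8.12 and 8.14, the growth factor Tgfb3 at 8.36 and 8.38, the stem cell factor Kitl at 8.66 and 8.74, and Mif at 11.69 and 11.78. The inflammatory genes Tnf at 5.37 and 4.97, Ifng at 4.88 and 4.73, and Ifnb1 at 3.32 and 3.40 were under background on both arrays. Of 14 measured other receptors, 13 (92.9%) were above background, beside the same 60.3%. The interferon receptor chains Ifnar1, Ifnar2, Ifngr1 and Ifngr2 gave 9.49 and 9.43, 8.48 and 8.56, 7.95 and 7.99, and 10.01 and 9.88, and Kit, the receptor of Kitl, gave 10.56 and 10.45. The lambda interferon receptor Ifnlr1, at 5.58 and 5.37, was the one receptor not above background. Whether the shares of these lists differ from those of other genes was not tested.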
